A study of Homo sapiens with 4 samples.

Results

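The serum amyloid A genes SAA1, SAA2 and SAA4 were followed across 4 Illumina expression arrays of TARBP2 knockdown and control cells. The 3 genes were picked because SAA4 was already known to be high in the knockdown arrays of these data, and every probe joined to them was taken. They had 5 probes among the 47323 on the array, 3 for SAA1 and 1 each for SAA2 and SAA4. All 5 were among the 19295 probes kept because their detection p-value, the authors' measure of signal above background, was under 0.01 on at least 2 of the 4 arrays. The related SAA3P and the read-through gene SAA2-SAA4 had 0 joined probes and were not analysed here.

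The cells were MDA-LM2 shDicer, derived for its metastatic growth from human MDA-MB-231 breast cancer cells. All 4 samples carried a hairpin against Dicer, the enzyme that cuts small RNA precursors. RNA was taken 48 h after transfection with siTARBP2-1, siTARBP2-2 or a control siRNA, the last on 2 arrays labelled siControl-1 and siControl-2. The design text describes the TARBP2 siRNAs as independent and calls the control cells mock-transfected, whereas the treatment protocol names a control siRNA. TARBP2 encodes a double-stranded RNA binding protein that partners Dicer. No level of the hairpin's effect is given in the labels, and nothing there says whether the line is 1 clone or whether the samples came from separate cultures. The p-values therefore cover the spread among the 4 arrays alone, and that spread may be technical.

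Serum amyloid A proteins are small apolipoproteins carried on high-density lipoprotein. In the acute phase response the liver makes SAA1 and SAA2 in large amounts after interleukin-1, interleukin-6 and tumour necrosis factor signals, which act on the genes through C/EBP, NF-kB and STAT3. SAA4 is known as the constitutive member, made in liver at a level that changes little in the acute phase. Deposited fragments of SAA1 and SAA2 form the fibrils of AA amyloidosis, and both genes can also be expressed outside the liver, in tumours among other tissues. The coding sequences of SAA1 and SAA2 are nearly identical.

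Arrays were of like quality, with a median intensity of 68.1 to 71.0 and between 39.1% and 40.8% of probes detected. The targeted gene was measured first. TARBP2, through its brightest probe (NM_134323), read 6.11 and 5.79 on the siTARBP2-1 and siTARBP2-2 arrays and 9.27 and 9.25 on the controls, as log2 normalized intensity. It fell 9.89-fold, with a log2 difference of -3.31 (SE 0.11, limma adjusted p = 5.51e-10). A second deposited table, the series matrix, carries the groups crosswise to these headings. Each of its columns correlated best with the same-numbered array of the other group, and in it as labelled the signs below are turned.

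SAA4, the member for which the choice was made, was first described through its promoter. It alone of the members was among the RefSeq promoters used. SAA1 and SAA2 had 0 entries there, so the promoters of the members were not compared. The region reaches from 250 bases before to 50 bases after the gene's start, on the minus strand of GRCh38.p14 at chr11:18236753-18237052, as given by RefSeq. Capitals mark matches, on either strand, to a pair of motifs of the C/EBP family, the factors through which interleukin signals reach the acute phase members.
SAA4 promoter: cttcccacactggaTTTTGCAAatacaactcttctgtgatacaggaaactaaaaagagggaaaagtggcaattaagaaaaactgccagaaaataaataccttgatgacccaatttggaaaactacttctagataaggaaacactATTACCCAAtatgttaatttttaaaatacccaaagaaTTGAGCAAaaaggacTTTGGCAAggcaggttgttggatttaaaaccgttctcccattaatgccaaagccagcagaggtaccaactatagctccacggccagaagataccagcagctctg

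TTGCNNAA matched the SAA4 promoter 3 times, and 10.5% of the 35116 promoters in the RefSeq table hold it at least once. TTNNGNAAT matched once, at a place that does not overlap the other matches, and 11.0% of promoters hold that motif. A loose NF-kB motif, GGG and CC with 5 bases of any kind between them, had 0 matches and is held by 58.7% of promoters. The STAT motif TTCNNNGAA had 0 matches against 7.66% of promoters, and TATAAA had 0 against 11.5%. These are matches of letters in 1 window and say nothing of binding.

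All 3 serum amyloid A genes read higher on both knockdown arrays than on both control arrays. Because SAA4 was chosen from this contrast, and SAA1 and SAA2 with it, the levels that follow are a description without a test. The SAA4 probe (NM_006512) read 7.17 and 7.30 with siTARBP2-1 and siTARBP2-2, and 5.45 and 5.39 in the controls, as log2 normalized intensity. Both knockdown arrays were high, both controls were low, and the groups did not overlap. The group means were 7.24 ± 0.09 (SD, n = 2) and 5.42 ± 0.04 (SD, n = 2), a log2 difference of 1.82, or 3.52-fold.

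Before normalization the SAA4 probe gave 187.9 and 207.6 intensity units in knockdown and 85.5 and 85.9 in control. The detection p was 0 on both knockdown arrays, and 0.0039 and 0.00649 on the controls. SAA4 was thus detected on all 4 arrays but stood close to background in control, where probes not detected (detection p over 0.5) had medians of 53.2 and 55.4 units. The ratio of its mean intensities with background left in was 2.31, below the 3.52-fold found after background correction.

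SAA1, the major acute phase member, was read by its brightest probe (NM_199161) at 11.40 and 11.35 in knockdown and 10.02 and 9.95 in control, on the log2 scale. The means were 11.38 ± 0.04 and 9.98 ± 0.05 (SD, n = 2 each), a log2 difference of 1.39, or 2.63-fold. This probe was bright on every array, with 2752.2 and 2734.1 units in knockdown against 1075.0 and 1001.3 in control, and its detection p was 0 on all 4. Its ratio of mean intensities without background correction was 2.64, almost the same as the normalized fold.

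A pair of further SAA1 probes carry the accession NM_000331. One, called probe A in the plots, read 9.30 and 9.21 in knockdown and 7.79 and 7.73 in control, a log2 difference of 1.495. The other, probe B, read 8.31 and 8.33 against 6.75 and 6.80, a log2 difference of 1.54. On both the knockdown arrays lay above the controls with no overlap, so the 3 SAA1 probes gave like differences, between 2.63-fold and 2.91-fold.

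SAA2, the paralog that rises with SAA1 in the acute phase, had 1 probe (NM_030754). It read 10.60 and 10.46 in knockdown and 9.17 and 9.30 in control, with means of 10.53 ± 0.10 and 9.24 ± 0.10 (SD, n = 2 each). The log2 difference was 1.29, or 2.45-fold, the same as the ratio of mean intensities without background correction. Its intensities were 1592.9 and 1505.7 units in knockdown against 608.1 and 655.8 in control, again without overlap. The probe sequences were not used here, so whether an SAA1 probe also takes up SAA2 RNA, or the reverse, was not tested. Likewise SAA4 RNA and the SAA2-SAA4 read-through RNA cannot be told apart with a single SAA4 probe.

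**Figure D1:**
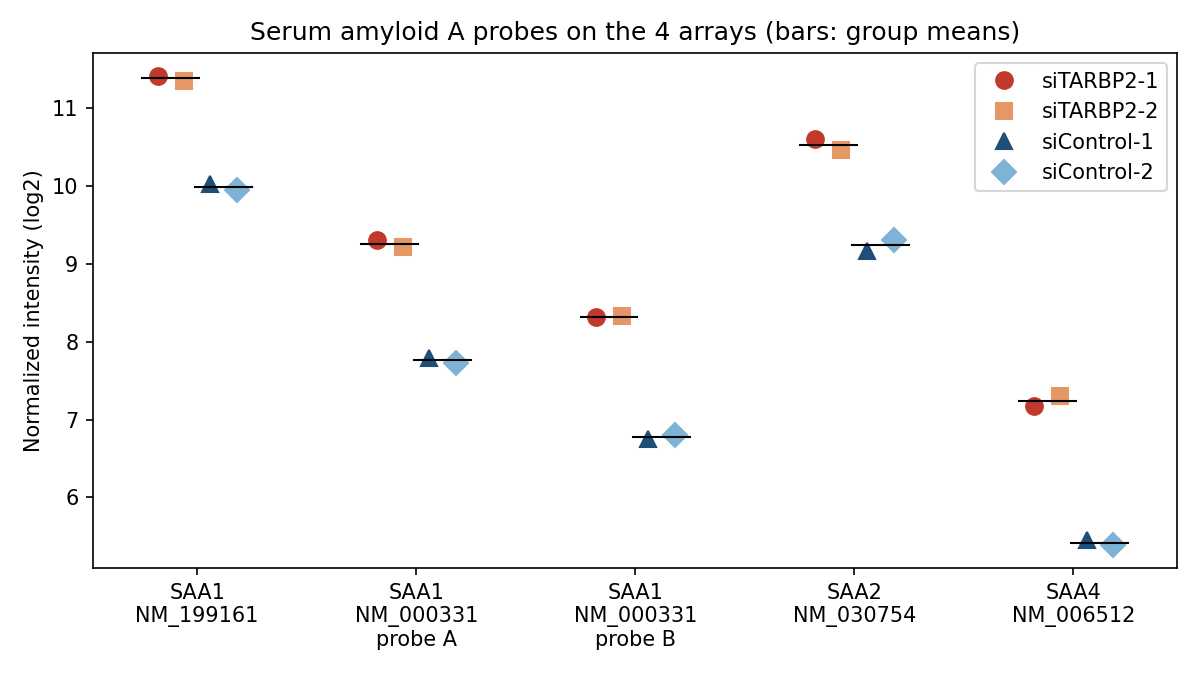
Normalized intensity (log2, vertical axis) of the 5 serum amyloid A probes on the 4 arrays, with a symbol for each array and a bar at each group mean. For every probe both knockdown arrays lie above both controls, by 1.29 for SAA2 to 1.82 for SAA4 between means, and levels of different probes are not comparable.

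Across the 5 probes the smallest gap between the lowest knockdown and the highest control value was 1.154 on the log2 scale. The largest gap between arrays of the same group was 0.138. The median log2 difference of the 5 probes was 1.495, while that of all 19295 kept probes was -0.0094. Knockdown lay above control without overlap for 5 of the 5, where 30.7% of all kept probes do so. Over all kept probes limma called 28.0% in this contrast, 14.1% higher and 13.9% lower. These shares are background to a choice made on the same contrast, and nothing is read from them.

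Ranked by log2 difference among the 19295 kept probes, SAA4 stood at 10, the SAA1 probes at 22, 27 and 32, and SAA2 at 38. SAA4 stood at 20 with an offset of 50, at 22 without background correction and at 25 in the crossed series matrix, where SAA2 stood at 22, 19 and 18, and SAA2 stood at 57 without control replicate 1. After background correction 93 probes, or 0.482%, had a difference above 1. Just above SAA4 stood the chemokine genes CCL3L3 at 2.07 and CCL3 at 1.95, the latter detected on 1 of the 2 controls, and an unnamed accession, XM_001713809, at 1.84. Just below came another unnamed accession, XM_001713810, at 1.79, then LTB, the lymphotoxin beta subunit, at 1.65, and a CCL3L1 probe. That CCL3L1 probe was not above background on either control and was at least 2.27-fold higher in knockdown, a bound computed from the lowest signal among detected probes, whereas another CCL3L1 probe was detected on all 4 arrays and stood at 1.49. With the brightest probe standing for each of 11272 genes, SAA4 ranked 4, SAA1 13 and SAA2 18.

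**Figure D2:**
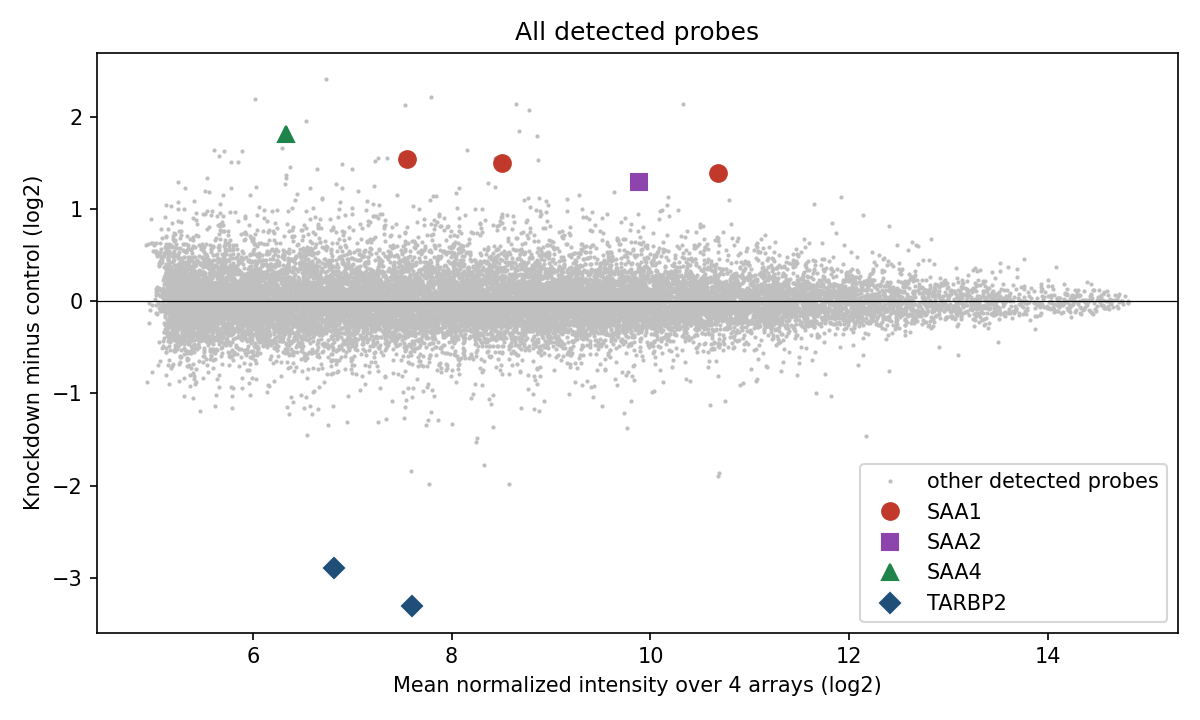
Difference between knockdown and control (log2, vertical axis) against mean normalized intensity over the 4 arrays (log2, horizontal axis) for the 19295 kept probes, 1 point each. The SAA4 point lies at a mean of 6.33, and the SAA1 and SAA2 points at 7.55 (SAA1 probe B) to 10.68. All 5 lie between 1.29 and 1.82, with the TARBP2 probes at the bottom.

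Which member had the highest difference depended on the treatment of background. With background correction and the offset of 16 added to the corrected signal, SAA4 had the highest difference (1.82) and SAA2 the lowest (1.29). Quantile normalization with background left in turned this order, with SAA4 lowest at 1.17 and the brightest SAA1 probe highest at 1.36. The series matrix with its groups crossed gave the same order, with 1.11 for SAA4 and 1.38 for that SAA1 probe. SAA4 therefore moved more than 1.5 times with this choice, and its order against SAA1 and SAA2 is not settled by these arrays.

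**Figure D3:**
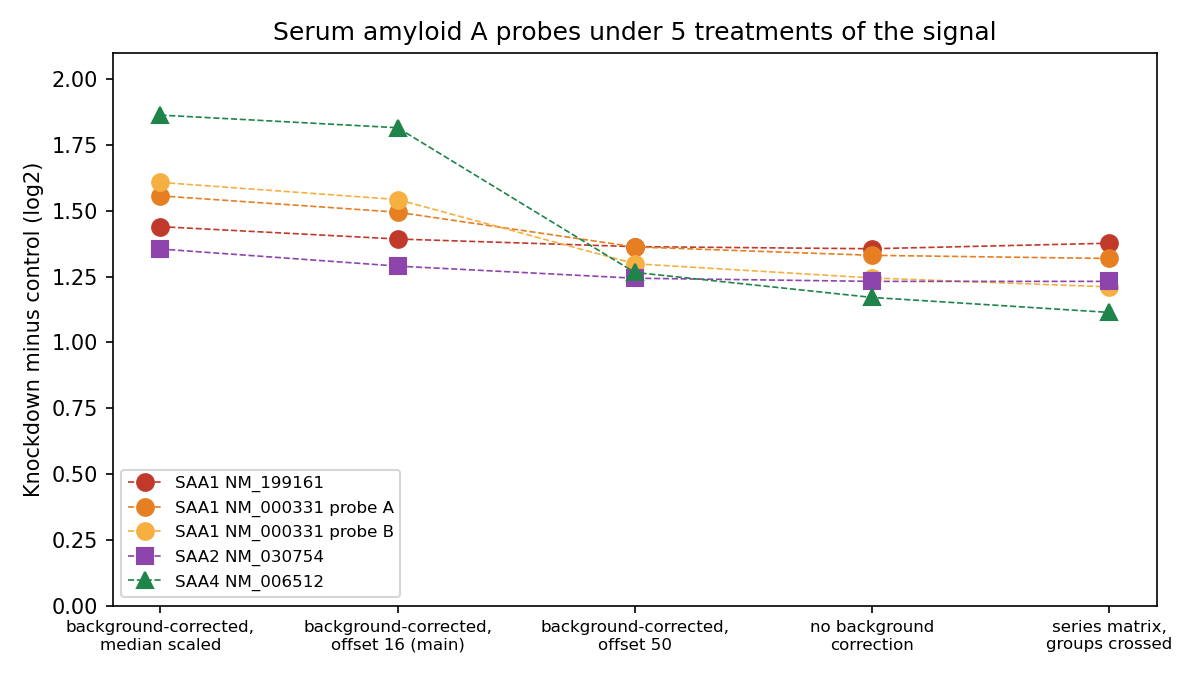
Difference between knockdown and control (log2, vertical axis) of each serum amyloid A probe under 5 treatments of the signal, with points of 1 probe joined. The dim SAA4 probe goes from 1.86 to 1.11 and SAA1 probe B from 1.61 to 1.21, whereas the brightest SAA1 probe stays between 1.36 and 1.44.

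The contrast between the siRNAs was not used in choosing the genes and could be tested. Each side is 1 array, and only the 2 controls give a spread within a group. The error of a difference combines that spread of a probe with the variance trend over all kept probes. Against the mean of the controls, SAA4 was 1.75 higher with siTARBP2-1 and 1.88 higher with siTARBP2-2 on the log2 scale. The corresponding values were 1.42 and 1.37 for the brightest SAA1 probe and 1.36 and 1.22 for SAA2. Both siRNAs came with higher readings of each gene, against the same controls. These differences from the controls are parts of the contrast behind the choice of the genes, so they are a description only.

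siTARBP2-1 minus siTARBP2-2 was -0.13 for SAA4 (95% interval -0.54 to 0.28), 0.05 for the brightest SAA1 probe (-0.12 to 0.23) and 0.14 for SAA2 (-0.07 to 0.34). For SAA1 probe A it was 0.09 (-0.14 to 0.33), and for probe B -0.02 (-0.31 to 0.27). By limma, 0 of the 5 probes passed the threshold, with adjusted p between 0.960 and 0.995 and unadjusted p between 0.169 and 0.879, so 0 of 5 also had an unadjusted p under 0.05. Over all kept probes 0.0259% were called in this contrast, and 5.56% had an unadjusted p under 0.05. The intervals leave room for differences of up to about 0.54 in size for SAA4 and of 0.34 for SAA2. With 1 array on each side few calls could be made, so the lack of them does not show that the siRNAs act alike.

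The authors' deposited table holds 1 log fold change per accession on a scale that is not stated. A transform fitted here to match its values compresses dim signals. In that table all 4 serum amyloid A accessions were marked as up-regulated. The mark is carried by 1240 of 39747 accessions in the authors' deposited table, or 3.12%. These marks come from the same arrays and the same contrast as the choice of the genes, so nothing is read from that share. Its values were 1.35 for NM_199161 and 1.16 for NM_030754. They were 0.992 for NM_000331, whose 2 probes were averaged, and 0.658 for NM_006512. SAA4 ranked 77 among all accessions of the authors' deposited table, behind SAA1 at 5 and 18 and SAA2 at 9, the reverse of its place after background correction.

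The serum amyloid A genes lie together on the short arm of chromosome 11. In RefSeq's GRCh38.p14 annotation the order runs SAAL1, MRGPRX3, MRGPRX4, SAA4, SAA2-SAA4, SAA2, SAA1, HPS5, GTF2H1 and LDHA. Of 20 protein-coding genes between TPH1 and PTPN5, 13 had a kept probe. A list of 16 neighbours, which also holds SERGEF from beyond this span, had 11 kept genes, with 2 higher and 2 lower in knockdown at a limma adjusted p under 0.05. Over all 11272 genes 15.8% were called higher and 15.8% lower. Without control replicate 1 the list held 1 higher and 1 lower gene, and without knockdown replicate 1 it held 1 higher. The neighbours' median log2 difference was -0.04, against -0.0087 for all genes.

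SAAL1, named for its likeness to serum amyloid A, read 10.65 and 10.59 in knockdown and 10.89 and 10.96 in control, lower by a log2 difference of -0.30 (SE 0.06, limma adjusted p = 0.00229). On the other side HPS5, a subunit of a complex that builds lysosome-related organelles, was lower at -0.27 (SE 0.07, limma adjusted p = 0.00918). That call ended with median scaling (adjusted p = 0.0903), without a variance trend (0.0513) and without control replicate 1 (0.0679), and a second HPS5 probe gave -0.12. GTF2H1, a subunit of the transcription and repair factor TFIIH, was higher at 0.37 (SE 0.07, limma adjusted p = 0.00162), with a second probe at 0.14. SERGEF, named after its value was seen as the other neighbour called higher, was at 0.30.

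LDHA, the lactate dehydrogenase subunit of glycolysis, read 14.40 and 14.35 in knockdown against 14.35 and 14.38 in control. The groups overlapped, with a log2 difference of 0.01 (SE 0.05, limma adjusted p = 0.908). The genes nearest on either side of the serum amyloid A genes with a kept probe, SAAL1 and HPS5, thus read lower, whereas the members read higher. The differences themselves were not tested against each other.

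**Figure D4:**
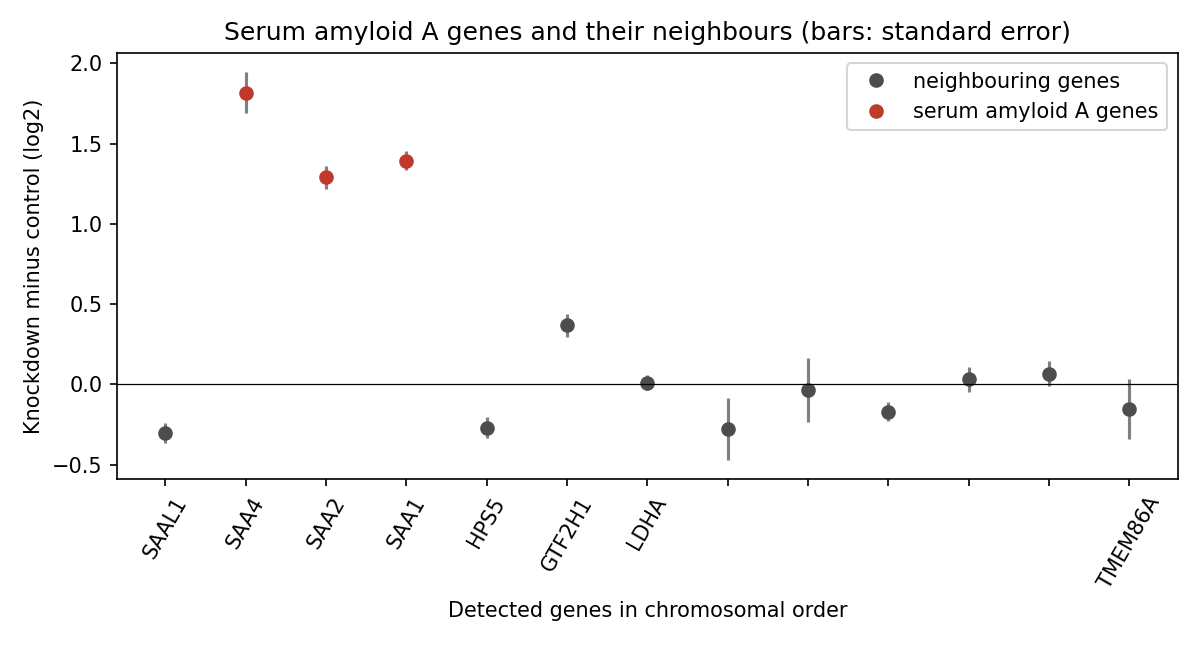
Difference between knockdown and control (log2, vertical axis) of the 13 genes with a kept probe in chromosomal order from SAAL1 to TMEM86A, by brightest probe, with standard errors as bars and labels on genes named in the text. SAA4, SAA2 and SAA1 lie at 1.29 to 1.82, and every other gene in the row lies between -0.30 and 0.37.

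Acute phase genes other than the serum amyloid A genes were detected in part. Of 26 listed, 25 were joined and 8 kept, of which 4 rose and 1 fell, where 15.8% of all genes were called each way, with a median log2 difference of 0.29. The number that fell was 2 without knockdown replicate 1, 0 without control replicate 2 and 0 without a variance trend. LCN2, the iron-siderophore binding protein lipocalin 2, read 7.06 and 7.16 in knockdown and 6.04 and 6.15 in control, a rise of 1.01 (SE 0.12, limma adjusted p = 3.78e-05). C3, the central complement component, rose by 0.79 (SE 0.09, limma adjusted p = 4.61e-05), and PTX3, a long pentraxin, by 0.61 (SE 0.07, limma adjusted p = 3.72e-05). In each of these the groups did not overlap.

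SERPINA1, the protease inhibitor alpha-1-antitrypsin, rose by 0.42 and was named after its value was seen. C-reactive protein (CRP), the liver's other large acute phase product, was among the 17 joined genes not kept, with SAP (APCS), haptoglobin (HP) and the fibrinogen chains. Of 8 negative acute phase proteins, which the liver makes less of in inflammation, 3 were kept and 0 passed the threshold by limma. Over all genes 15.8% were called each way, so 0 of 3 shows little. SERPIND1 was not above background on either control and was at least 1.27-fold higher. It was kept through the knockdown arrays alone, so its call without a variance trend (limma adjusted p = 0.0206) supports nothing. ALB was detected on 1 of the 2 controls and stood at 0.51, and F12 stood at -0.19. ALB passed with median scaling (adjusted p = 0.0268), with a replicate block (0.0420) and without control replicate 1 (0.00608).

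The cytokines and receptors that drive serum amyloid A in liver moved in both directions. Of 22 listed 19 were kept, with 6 higher and 4 lower, against 15.8% of all genes in each direction, and a median of 0.03, and without knockdown replicate 2 only 3 were higher. IL6, the main inducer of hepatic acute phase genes, read 12.81 and 12.76 in knockdown and 12.17 and 12.18 in control, a rise of 0.61 (SE 0.05, limma adjusted p = 2.30e-06). IL1A, an interleukin-1 ligand, rose by 0.37 (SE 0.06, limma adjusted p = 4.14e-04). IL1B, the other interleukin-1 ligand, read 11.34 and 11.38 against 11.23 and 11.39, so the groups overlapped, with a difference of 0.05 (limma adjusted p = 0.587).

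MYD88, the adaptor of interleukin-1 and Toll-like receptors, rose by 0.61 (SE 0.07, limma adjusted p = 4.37e-05). IL11, an IL6-family cytokine that signals through gp130, fell by 0.89 (SE 0.08, limma adjusted p = 4.52e-06). IL1R1, the interleukin-1 receptor, was named after its values were seen. It was measured on the knockdown arrays but in neither control, which bounds its difference as at least 1.64-fold (limma adjusted p = 0.00640). The gene was kept through the knockdown arrays alone, so its call supports nothing, and with detection asked for on all 4 arrays 5 genes of the list were higher. These are the ligands and the receptor arm, and the tumour necrosis factor gene TNF did not pass, with a difference of 0.38. IL1RAP, LIFR and JAK2 were the other genes of the list called lower, at -0.54, -0.65 and -0.31. JAK1 and IRAK1 were the others called higher, at 0.21 and 0.17. IL1RAP, LIFR, JAK2, JAK1 and IRAK1 were named after their values were seen, and a second IL1RAP probe, at 0.17, did not pass.

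Among transcription factors and feedback inhibitors of serum amyloid A, 20 of 23 were kept, with 0 higher and 6 lower, against 15.8% of all genes in each direction, and a median of -0.11. NFKB2, an NF-kB precursor of the non-canonical arm, read 8.34 and 8.46 in knockdown and 8.81 and 8.92 in control, a fall of 0.47 (SE 0.08, limma adjusted p = 7.21e-04). RELB, its partner, was lower at -0.35, a call that ended without knockdown replicate 2 (adjusted p = 0.0617). With median scaling 1 gene of this list was higher and 2 were lower, and without a variance trend 2 were lower. Without control replicate 1, 2 were higher and 2 lower. The number lower was 3 without knockdown replicate 1 and 1 without knockdown replicate 2, and 1 was higher without control replicate 2.

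CEBPB and CEBPD, the C/EBP members of the acute phase, had differences of -0.11 (limma adjusted p = 0.130) and 0.15 (limma adjusted p = 0.110). NFKB1 and RELA, the canonical NF-kB subunits, stood at 0.01 and -0.09, and SOCS3, the feedback inhibitor of gp130 signalling, at -0.30. None of these passed the threshold by brightest probe. STAT3, the factor downstream of gp130, had 3 probes that differed in their call: the brightest gave 0.19 (limma adjusted p = 0.105), the others 0.33 (0.0309) and 0.41 (0.0108). Without control replicate 1 the brightest probe passed too (adjusted p = 0.00640).

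Receptors for serum amyloid A protein were mostly not detected, with 4 of 10 kept. Of the 4, 1 was called higher and 0 lower, against 15.8% of all genes in each direction. FPR2, the formyl peptide receptor best known for binding serum amyloid A, was not kept. FPR1, another formyl peptide receptor, named after its value was seen, was kept at 0.26 and did not pass (limma adjusted p = 0.229). TLR4 rose by 0.45 (SE 0.10, limma adjusted p = 0.00447), a call that ended without a variance trend (adjusted p = 0.0597) and without knockdown replicate 2 (0.0538). SCARB1, a high-density lipoprotein receptor, was at -0.14 and SELENOS, a selenoprotein of the endoplasmic reticulum, at -0.09, neither past the threshold.

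Lipoprotein genes had 9 of 23 kept, with 4 higher and 0 lower, against 15.8% of all genes in each direction, and a median of 0.23. ABCA1, the cholesterol exporter that loads apolipoproteins with lipid, read 10.72 and 10.75 in knockdown and 9.58 and 9.65 in control, a rise of 1.13 (SE 0.06, limma adjusted p = 6.86e-08). LIPG, endothelial lipase, rose by 0.79 (SE 0.10, limma adjusted p = 7.53e-05), with a second probe at 0.37 that did not pass. ABCG1, which exports cholesterol to high-density lipoprotein, rose by 0.41 (SE 0.09, limma adjusted p = 0.00392). APOA1 and APOA2, the main apolipoproteins of high-density lipoprotein, were not kept.

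Of 10 proteases known to cut serum amyloid A protein, 9 were kept and 3 rose, where 15.8% of all genes were called higher, with a median of 0.21. The number higher was 1 without a variance trend, without control replicate 2 and without knockdown replicate 1, and in the last of these 1 protease was lower. MMP3, stromelysin-1, read 7.09 and 6.83 in knockdown and 5.68 and 5.71 in control, a rise of 1.27 (SE 0.13, limma adjusted p = 1.69e-05). MMP1, interstitial collagenase, rose by 0.29 (limma adjusted p = 0.0164) and CTSB, cathepsin B, by 0.21 (0.0467). Both calls were lost without a variance trend (adjusted p = 0.0843 and 0.210), without control replicate 2 (0.177 and 0.151) and without knockdown replicate 1 (0.0514 and 0.412), where CTSB stood at 0.08. A second CTSB probe gave 0.35 (limma adjusted p = 0.00103). MMP1 also lost its call without knockdown replicate 2 (0.0733), and CTSB without control replicate 1 (0.0803) and without the detection filter (0.0727).

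Genes that serum amyloid A protein is known to induce in other cell types went both ways, with 5 higher and 4 lower of 14 kept, against 15.8% of all genes in each direction, and a median of 0.17. Without a variance trend 3 were higher, and with detection asked for on all 4 arrays 4 were higher. Those higher included CCL20, a chemokine for CCR6, which rose by 0.93 (SE 0.08, limma adjusted p = 2.45e-06), and CCL3, at 1.95. CCL3 was detected on 1 of the 2 controls, which read 5.11 and 6.01, so its size rests on control values near background. Among those lower was CXCL2, a neutrophil chemokine, which fell by 0.71 (SE 0.06, limma adjusted p = 4.54e-06). CXCL8, ICAM1 and VCAM1 were the other genes called lower, and IL6, CXCL1 and F3 the other genes called higher. The other VCAM1 probes, at -0.24 and 0.13, did not pass. CXCL1, F3, CXCL8, ICAM1 and VCAM1 were named after their values were seen.

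**Figure D5:**
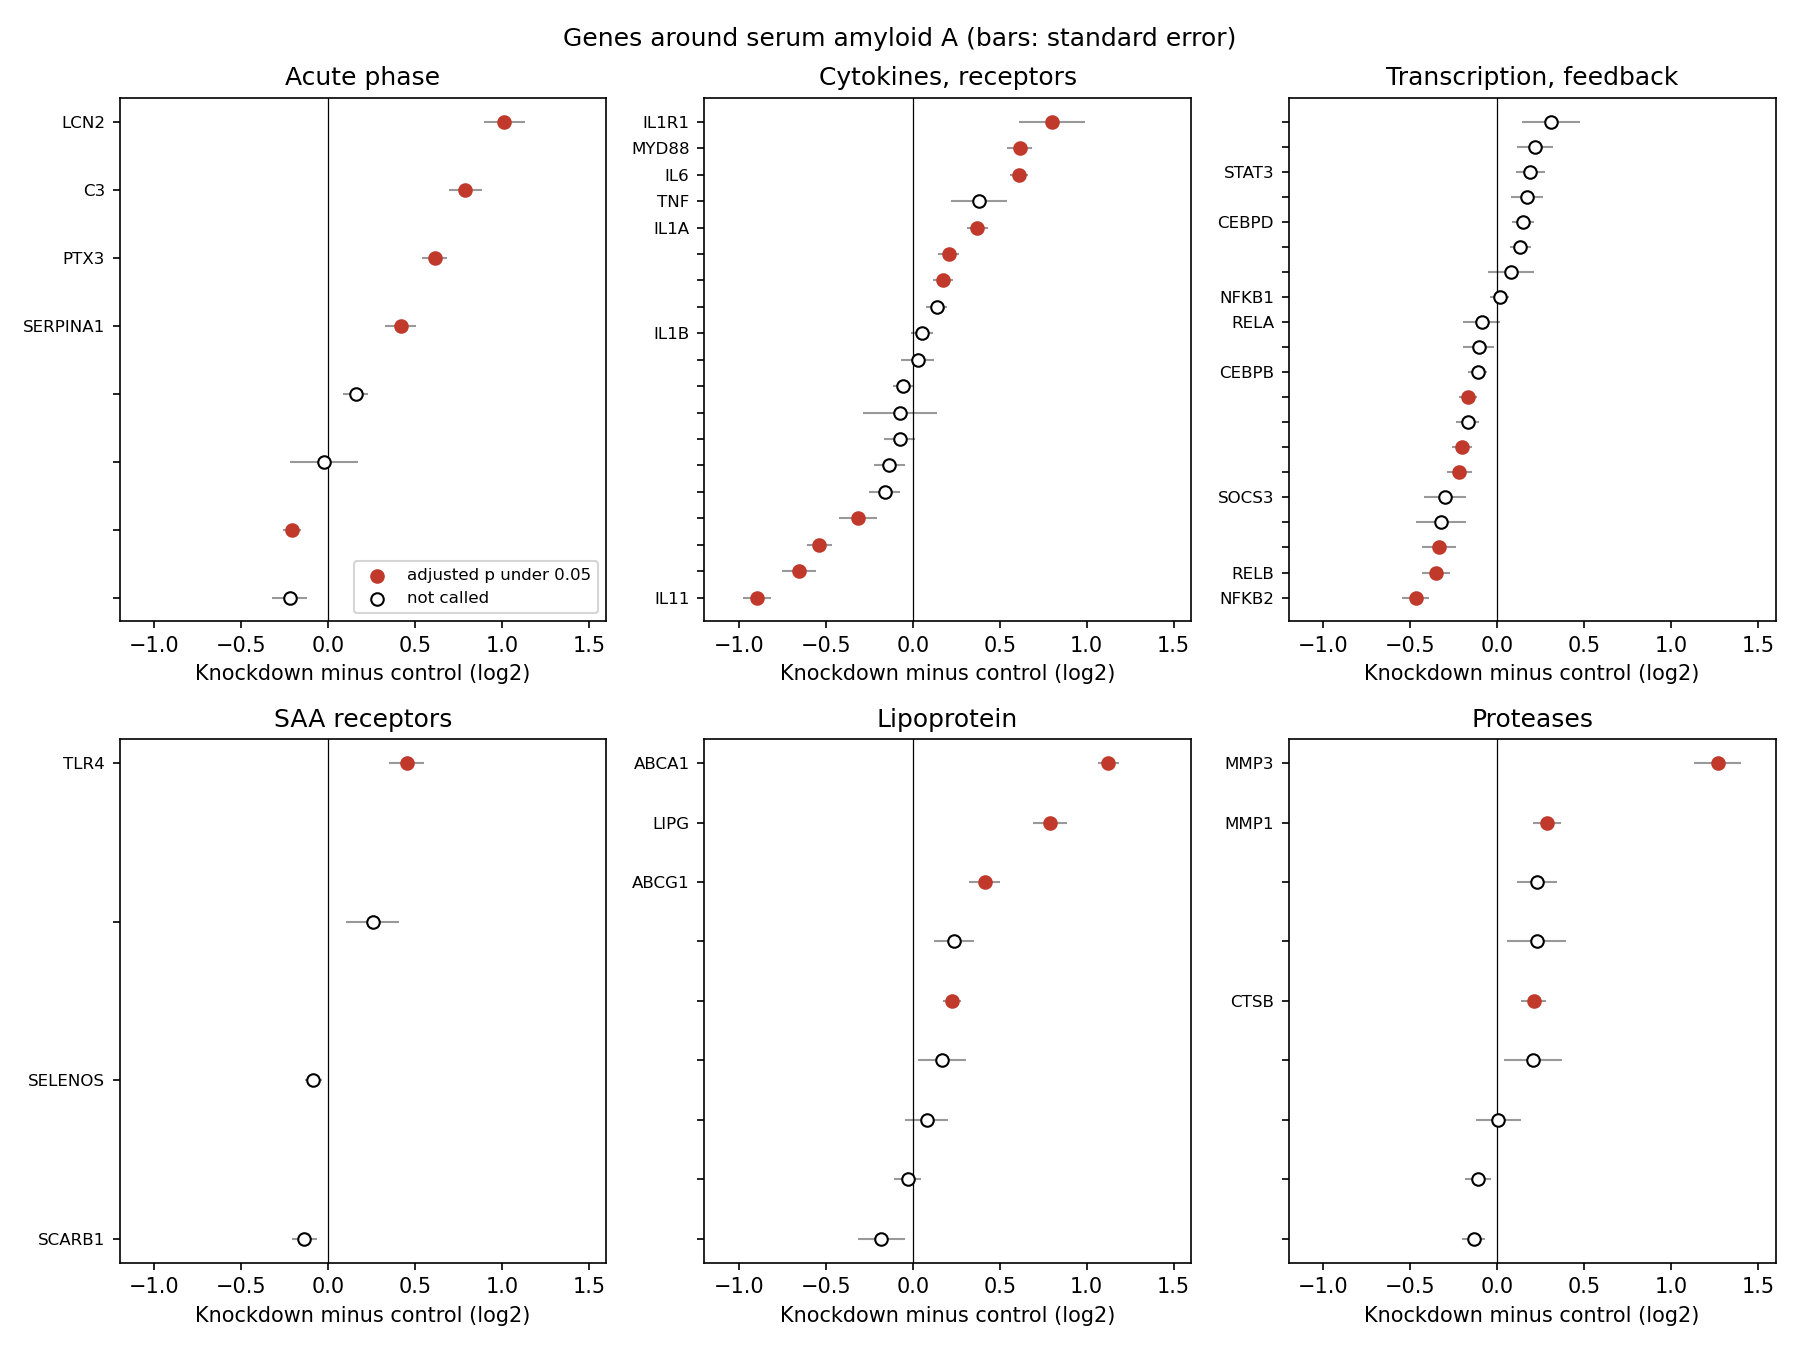
Difference between knockdown and control (log2, horizontal axis) of the kept genes in 6 lists around serum amyloid A, by brightest probe, with standard errors as bars and filled points for a limma adjusted p under 0.05. All kept genes are drawn, and labels mark genes named in the text. The lists hold filled points mostly to the right for acute phase, lipoprotein and protease genes, on both sides for cytokines and receptors, and to the left for transcription factors.

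The genes whose pattern over the 4 arrays was most like that of SAA4 were found by the Euclidean distance between log2 values centred on each gene's mean. FLG, the epidermal protein filaggrin, was nearest at 0.277, with 9.05 and 8.89 in knockdown and 7.36 and 7.31 in control. LTB followed at 0.306, with 1 of its 2 controls detected. MPP4, CYP24A1, the vitamin D hydroxylase, and ODAPH came next, but CYP24A1 was detected on 1 control only, so the order among these genes rests on control values at background. Neither control array measured MPP4 or ODAPH above background, and the bounds on their difference were at least 2.44-fold for MPP4 and at least 2.31-fold for ODAPH. SAA1 was the seventh nearest, at 0.442. A distance over 4 arrays in 2 groups mostly ranks genes by how near their difference is to that of SAA4.

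The cell labels were set against markers of other cells that make serum amyloid A. Mesenchymal markers typical of this line were present, with 7 of 8 kept and summed log2 intensities of 15.97 and 16.01 in knockdown and 15.85 and 15.84 in control. VIM, the intermediate filament vimentin, read 14.56 to 14.69, and FN1 was not kept. Of the 7 kept markers 6 had a positive difference, most of them small, with a median of 0.11 against -0.0087 for all genes. By brightest probe 2 were called higher, where 15.8% of all genes were called higher. ZEB1, named after its value was seen, was at -0.26 (limma adjusted p = 0.0732). SPARC, a matrix protein, rose by 0.72 and CAV1, a caveolar coat protein, by 0.35, whereas CD44, an adhesion receptor, was at 0.13 by its brightest probe and did not pass (limma adjusted p = 0.0621). That probe passed when only 1 probe per gene was tested (0.0414), and a second CD44 probe gave 0.30 (0.00278). Luminal breast markers had 2 of 7 kept, with ESR1, PGR, FOXA1 and CDH1 not kept and sums of 6.98 and 7.02 against 6.56 and 6.57. ELF3 rose by 0.49 (limma adjusted p = 0.0183), and GATA3 was at 0.34. The ELF3 call ended without the detection filter (adjusted p = 0.0805), without control replicate 1 (0.0859) and without either knockdown replicate (0.0600 and 0.127).

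Hepatocyte markers had 2 of 11 kept, ALB and AFP, with summed log2 intensities of 6.82 and 6.64 in knockdown against 6.87 and 6.40 in control. These sums overlapped between the groups, and APOB, TTR, TF, FGB and SERPINC1 were not kept. Blood cell markers had 4 of 9 kept, with PTPRC, CD3E, LYZ and MPO not kept, and sums of 12.50 and 12.30 against 12.26 and 12.38, which also overlap. CD14 was at 0.21, CD68 at 0.07 and CSF1R at 0.10, none past the threshold, though CD14 passed with median scaling (adjusted p = 0.0391).

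Adipocyte markers had 3 of 5 kept, with ADIPOQ and PLIN1 not kept, and their sums were 8.33 and 8.32 in knockdown against 8.08 and 8.18 in control. CIDEC, a lipid droplet protein, was not above background on either control and was at least 1.39-fold higher (limma adjusted p = 0.0237). It too was kept through the knockdown arrays alone, so its call supports nothing, and the call ended without the detection filter (adjusted p = 0.107) and without control replicate 1 (0.0935). LEP was at 0.17 and FABP4 at -0.11. The luminal and mesenchymal sums were higher on both knockdown arrays, as was the adipocyte sum, which holds CIDEC. Nothing is read from the adipocyte sum, and the part of these markers in the serum amyloid A levels was not tested. In a bulk sample fewer cells that express a gene and less RNA per cell cannot be told apart.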

How the data were processed

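RNA from 4 samples, 2 arrays a group, was measured on Illumina BeadChips. The authors deposited linear signal intensities of 47323 probes before normalization, with detection p-values beside them per the file headers. They also deposited a table with 1 log fold change per accession, on a log scale whose base is not stated, and a series matrix of linear intensities. The submitters' processing notes name lumi without a version.

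Probes were joined to accessions by value. With a fitted inverse hyperbolic sine transform of the series matrix and its groups crossed, mean differences equalled the deposited fold changes (tolerance 1e-09), which joined 39314 of 39747 accessions and 46288 probes. Shifted by 1e-06, the search found 18 single-probe and 20 grouped accessions. RefSeq gene tables of GRCh38.p14 named 27738 probes. With groups crossed 33131 probes matched, against 13 as labelled, the latter counted by turning the signs of the same fit. No fit was made with groups as labelled, so the 13 is not a separate test. The headings of the non-normalized table were used.

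Intensities were corrected and quantile-normalized with neqc (offset 16) of limma 3.58.1 in R 4.3.3 and log2-transformed. Knockdown was compared with control, and siRNA with siRNA in a fit of 3 groups, with lmFit and eBayes with a variance trend, two-sided, adjusted by Benjamini-Hochberg over the 19295 kept probes at a threshold of 0.05, and tested on simulated data. Each gene was represented by its brightest probe. The number of arrays limits the precision. For knockdown against control, 2 arrays against 2 could not give an exact two-sided permutation p below 0.333. The members and gene lists were chosen with earlier results of these data known. Named genes are TARBP2, all members, the 3 smallest p-values of each list, 13 genes fixed by name among regulators and neighbours, the 5 genes nearest SAA4 and the 3 probes either side of it in rank. Some genes that this rule takes or that a list holds are not reported here. Alternatives covered background, offset, scaling, filters, the variance model, probe choice, the series matrix, a replicate block and leaving out each array.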

Additional observations from a re-analysis of the deposited data

How the results depend on the processing

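All 5 serum amyloid A probes read higher in knockdown under every alternative except the series matrix as labelled. Their median log2 difference of 1.495 became 1.25 without background correction, 1.30 with an offset of 50, 1.39 over the brightest probe of each of the 3 genes and 1.23 in the series matrix with groups crossed, and ranged from 1.45 to 1.53 when each array was left out. The series matrix as labelled, an alternative chosen after seeing the data, turned every sign because its groups stand crosswise: the median was -1.23, and the probes were at -1.38, -1.32 and -1.21 for SAA1, -1.23 for SAA2 and -1.11 for SAA4. Probes called between knockdown and control, 5404 in all (2713 higher, 2691 lower), came to 3147 without a variance trend and to between 3670 and 4061 with an array left out, and the cause was not tested beyond the fewer samples of the latter. With median scaling they split into 3190 higher and 1553 lower. Of the genes in the pathway and neighbour lists, 24 were higher and 17 lower, and 10 were lower with median scaling, 10 without a variance trend, and 11 to 15 with an array left out, the 11 without control replicate 1, while 18 to 23 were higher. The cause was not tested. Replicate numbers did not pair the samples (correlation of deviations -0.000555), and with the number as a replicate block 5509 probes were called, 25 list genes were higher and 19 lower, and the serum amyloid A median was 1.495. Of 48 named genes, 13 gained or lost a call in at least 1 of 14 settings. Dim signal limits SAA4 most, since its controls stood little above background, and each group holds only 2 arrays.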
